A study of Homo sapiens with 24 samples.

Results

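The 10 genes described here encode some of the human H3K4 methyltransferases (KMT2A, KMT2B, KMT2C, KMT2D, SETD1A and SETD1B) and H3K4 demethylases (KDM5A, KDM5B, KDM1A and KDM1B). They were chosen by name, by what their proteins do, with earlier results of these data known, and the rule uses no measured value to pick the genes. For each gene, the regions of the H3K4me3 table lying within 2 kb of any of its annotated transcription start sites were taken, and the region with the highest mean normalized read count was used as its main region. All 10 genes had such a region, out of 20020 protein-coding genes of which 15085 (75.3%) had at least 1. The 10 genes held 18 regions in these windows: 4 genes had 1 region, 4 had 2 and 2 had 3.

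Trimethylation of lysine 4 on histone H3 marks nucleosomes around the start sites of active genes. The SETD1 and KMT2 enzymes write methyl groups on this lysine and work within complexes that share WDR5, RBBP5, ASH2L and DPY30. KDM5A and KDM5B remove the tri- and dimethyl forms, whereas KDM1A and KDM1B can act only on the di- and monomethyl forms. The table thus shows H3K4me3 at the promoters of genes for writers and erasers of H3K4 methylation, not all of which act on the trimethyl form.

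The samples came from EndoC-βH3, a human pancreatic beta cell line with a tamoxifen-activated CreER recombinase that can remove its immortalizing transgenes. Chromatin of 500000 cells per sample was profiled by MINT-ChIP, in which barcoded chromatin of several samples is pooled before immunoprecipitation. There were 4 non-senescent control samples and 4 samples in which senescence had been induced with 4-OHT (4-hydroxytamoxifen) for 3 weeks. The dose was labelled 1 mM, whereas the methods of the paper give 1 μM. The genotype label of both groups was WT. All samples were from 1 cell line, so they carry its single genetic background, and the controls carry the same CreER construct. The values used are the authors' mean after normalization for library depth, taken here as the mean over the H3K4me3 samples of both groups, although the sources used here do not state which samples entered it. No value per sample or per group was used, so no level can be given for either state, no spread stands beside any value, and no difference between states was tested. The order of any 2 neighbouring genes below is therefore an order of 2 means with unknown error, and the depth of each sample is unknown here.

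The table held 97545 regions of the hg38 genome, with a median width of 677 bp and a median level of 4.40, where level means the mean normalized read count of a region. Genes with a region had a median level of 49.2 (quartiles 21.3 and 88.6), and their main regions had a median width of 2492 bp. Since a wide region collects more reads than a narrow one, genes were compared with each other by the count per kb of region, whose median over genes was 19.0 (quartiles 12.3 and 26.8). Of 16 genes that mark beta cells, 15 had a region, with a median level of 203.2 over wide regions (median 6870 bp), or 25.2 per kb; PAX6 had 664.6 and NEUROD1 386.5. Of these 15 genes, 12 were above the median level of all genes and 11 above the median per kb. Those below the median level were insulin itself (INS) at 24.7, G6PC2 at 18.4 and IAPP at 6.94. MAFA had no region in the table used here. Of 18 markers of other cell types, 13 had a region, with a median level of 17.0 and 9.86 per kb, and PTPRC, PDGFRB and VWF were among those with none. The 2 of these above the median of all genes were CD68 at 97.1 and IRX2 at 61.8. The CD68 value came from a region more than 2 kb from its canonical start, and the region over that start had 8.67.

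Promoter sequences were read from RefSeq (assembly GRCh38.p14), from 250 bases before to 50 bases after each gene's start, and 9 of the 10 genes matched; the exception was SETD1B. KDM5A is shown as the eraser with the highest level, KDM1B as the gene with the lowest, and KDM1A as the other member of its family. KMT2B and KMT2C were added after their values had been seen, because none of their promoter bases lay in a deposited region. All are written 5′ to 3′ on the gene's own strand, and capitals mark the GC box (GGGCGG or its complement CCGCCC), a binding motif of Sp1-family factors.
KDM5A, chr12:389271-389570, minus strand: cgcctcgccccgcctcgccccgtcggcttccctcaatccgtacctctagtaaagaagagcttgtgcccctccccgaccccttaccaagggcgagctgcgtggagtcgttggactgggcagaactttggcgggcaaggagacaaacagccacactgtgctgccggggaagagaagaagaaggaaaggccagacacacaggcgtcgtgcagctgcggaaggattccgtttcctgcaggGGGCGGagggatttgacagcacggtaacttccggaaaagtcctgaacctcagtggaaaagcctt
KDM1A, chr1:23019218-23019517, plus strand: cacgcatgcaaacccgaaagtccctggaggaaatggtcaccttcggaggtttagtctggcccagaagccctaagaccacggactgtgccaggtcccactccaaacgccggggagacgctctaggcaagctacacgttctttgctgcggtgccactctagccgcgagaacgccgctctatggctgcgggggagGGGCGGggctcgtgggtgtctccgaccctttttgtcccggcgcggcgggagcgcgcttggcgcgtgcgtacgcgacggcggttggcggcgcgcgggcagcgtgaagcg
KDM1B, chr6:18155172-18155471, plus strand: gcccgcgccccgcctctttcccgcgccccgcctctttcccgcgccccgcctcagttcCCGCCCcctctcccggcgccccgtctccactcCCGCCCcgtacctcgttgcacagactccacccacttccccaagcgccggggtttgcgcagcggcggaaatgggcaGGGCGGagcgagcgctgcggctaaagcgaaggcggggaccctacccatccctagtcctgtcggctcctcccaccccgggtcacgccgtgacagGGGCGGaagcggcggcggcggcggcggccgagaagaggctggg
KMT2B, chr19:35717753-35718052, plus strand: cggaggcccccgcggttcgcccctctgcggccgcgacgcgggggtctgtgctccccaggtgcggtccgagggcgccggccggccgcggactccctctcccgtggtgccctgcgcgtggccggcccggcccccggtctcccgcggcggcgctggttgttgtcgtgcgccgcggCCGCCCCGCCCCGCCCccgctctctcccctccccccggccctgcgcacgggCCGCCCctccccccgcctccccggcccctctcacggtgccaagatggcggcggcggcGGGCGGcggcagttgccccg
KMT2C, chr7:152435954-152436253, minus strand: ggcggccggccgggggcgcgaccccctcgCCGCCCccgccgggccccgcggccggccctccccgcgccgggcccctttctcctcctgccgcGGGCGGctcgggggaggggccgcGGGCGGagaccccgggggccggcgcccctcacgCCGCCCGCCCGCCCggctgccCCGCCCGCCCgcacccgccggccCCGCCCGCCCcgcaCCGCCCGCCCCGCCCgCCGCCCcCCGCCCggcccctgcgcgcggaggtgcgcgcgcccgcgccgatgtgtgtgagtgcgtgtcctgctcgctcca
The first 2 of these lay wholly inside a deposited region and the last 2 wholly outside, with KDM1B between them, 58 of its 300 bases being covered.

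Of the 10 genes, 8 had a level above the median of all genes with a region, but only 6 had a count per kb above the median. With the region nearest a start site in place of the highest one, 5 of the 10 had a level above the median of all genes, and their median level was 53.8 instead of 83.0. Any annotated start counted here, and where several regions held a start the highest of them was taken. KDM5B thus entered with 81.6, whereas the region over its canonical start had 17.3. The main regions of the 10 genes had a median width of 2775.5 bp, and the median count per kb was 29.4. From the lowest gene to the highest, the level spanned 6.62-fold and the count per kb 4.04-fold. The 6 writers had a median count per kb of 24.3 and the 4 erasers 32.8, with ranges that overlapped, and the difference was not tested. These medians leave out the further H3K4 enzymes KDM5C, SETD7, SMYD3 and PRDM9, which had 11.1, 22.5, 14.2 and 8.39 per kb. The KDM5B value among the erasers came from a region that held none of its own starts.

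**Figure D1:**
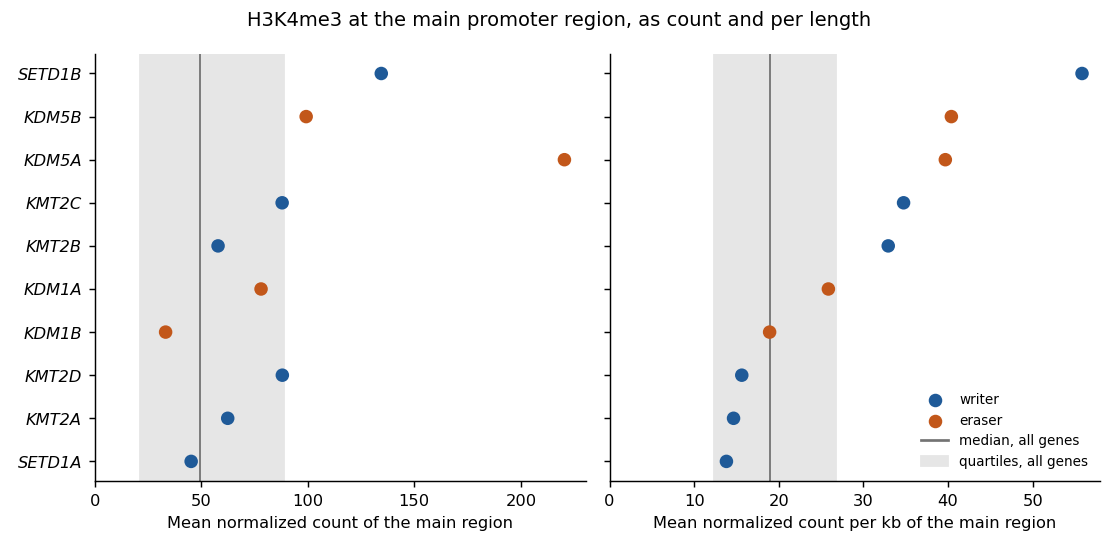
Each point is 1 gene, a writer in blue or an eraser in orange, by the mean normalized read count of its main region (left) and by that count per kb (right), with genes ordered by the right panel. The line and band give the median and quartiles of the 15085 genes with a region; SETD1B, KDM5B, KDM5A, KMT2C and KMT2B lie above the band per length, while the left panel has KDM5A farthest right at 220.5.

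Among the writers, KMT2A and KMT2B belong to the MLL branch whose complexes hold menin and act at promoters of developmental genes. The main region of KMT2A, at chr11:118436833-118441093, had a level of 62.4 over 4260 bp, or 14.7 per kb, below the median of all genes on this scale. It covered exon 1 from 341 bp after the start. A further region, upstream at chr11:118434028-118436340, had a level of 60.0, so both sides of the KMT2A start carried nearly the same count. The upstream one was narrower, with 25.9 per kb, and contained the start of a lncRNA gene on the opposite strand.

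KMT2B differed from its paralogue in that its signal lay mostly on one side. The main region, at chr19:35715953-35717711, had a level of 57.9 and 32.9 per kb, and ended 292 bp before the KMT2B start. It held no start site of any gene and overlapped ZBTB32, the neighbouring gene upstream. The region after the start, over exons 2 and 3, had a level of 13.8, so 80.8% of the count near KMT2B was upstream.

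KMT2C and KMT2D encode the large enzymes best known for monomethylation at enhancers. Their levels were almost equal, at 88.0 and 88.1, yet the regions differed in width. KMT2C had its count within 2532 bp at chr7:152432825-152435357, which gave 34.7 per kb, whereas KMT2D had it over 5635 bp at chr12:49056276-49061911, which gave 15.6 per kb. On the per-length scale KMT2C stood at the 89.8th percentile of genes and KMT2D at the 36.9th. The KMT2C region lay in the first intron, from 646 bp after the start. Only 12.9% of the count was in a region upstream, which contained a start of the pseudogene FABP5P3. Another FABP5P3 start lay 308 bp after the KMT2C start, outside both regions. The KMT2D region covered the start and exon 1.

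SETD1A and SETD1B encode the catalytic subunits of the complexes that place most of the trimethyl mark at active promoters. By their main regions they were the lowest and the highest of the writers on both scales, an order that turned when the region nearest the start was used. SETD1A, at chr16:30957142-30960419, had a level of 45.3 and 13.8 per kb, in 1 region that covered the start and exons 1 to 3. SETD1B had a level of 134.5 and 55.8 per kb at chr12:121801079-121803488, the 99.0th percentile per length. This main region lay wholly before the SETD1B start and contained starts of RHOF and of the lncRNA LINC01089, both on the opposite strand. Another LINC01089 start lay 103 bp before the SETD1B start, outside the region. The region after the SETD1B start, over exons 2 to 4, had a level of 26.0 and 10.4 per kb, both below SETD1A, so 83.8% of the count near the gene lay on the side of its neighbours.

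KDM5A, the founding member of the JARID1 demethylases, had the highest level of the 10. Its region at chr12:385219-390775 had a level of 220.5 over 5556 bp, which ranked 302 among the 15085 genes, and 39.7 per kb, the 94.3rd percentile. The region covered exons 1 and 2 of KDM5A. It also held the start of CCDC77, 28 bp away on the opposite strand, which has the same main region and hence the same value. Genes with levels nearest to it were CD46 at 221.1, RBM4 at 220.1 and KHDC4 at 219.9.

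KDM5B, a second JARID1 enzyme, had 3 regions in its windows, and its main region had a count per kb close to that of KDM5A, at 40.4. This main region, at chr1:202809875-202812332, had a level of 99.2 and lay upstream of the canonical start. It contained the starts of the lncRNA PCAT6 and of another lncRNA, but no start of KDM5B. A region of 81.6 at chr1:202804041-202807430 began 991 bp after the start. Between them, the region that spans the KDM5B start and exon 1, at chr1:202807999-202809024, had a level of 17.3. Its count per kb was 16.8, below the median of all genes. The 3 regions, with the one that held the lncRNA starts included, summed to 198.1, against 220.5 in the single region of KDM5A.

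KDM1A and KDM1B encode the FAD-dependent demethylases, KDM1A as the core of CoREST complexes. KDM1A had 1 region, at chr1:23018658-23021677, with a level of 78.1 and 25.9 per kb, covering its start and exon 1 along with the start of TEX46 at 368 bp on the other side. KDM1B had the lowest level of the 10, 33.3, at chr6:18153470-18155229, although at 18.9 per kb it stood at the median of all genes. Its main region ended 193 bp before the start and contained the start of TPMT, the thiopurine methyltransferase gene on the opposite strand. The region after the start, over exon 2, had a level of 22.2, and a further region, within 2 kb of a start site farther into the gene but containing none, had 11.0.

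**Figure D2:**
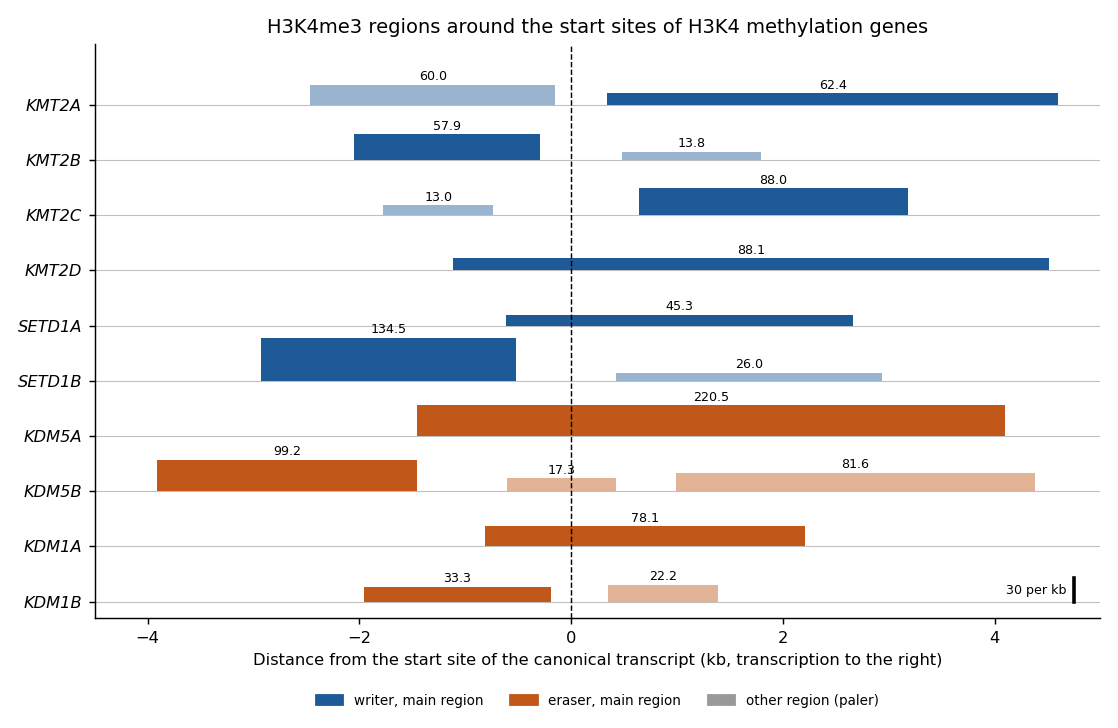
Bars are the deposited H3K4me3 regions drawn by distance from the start of each gene's canonical transcript in kb, with transcription to the right, bar height showing count per kb and the number above each bar its mean normalized read count. Dark bars are main regions; the dashed start line crosses a bar at KMT2D, SETD1A, KDM5A, KDM5B and KDM1A and falls in a gap at the other 5 genes. The KDM1B region farther into the gene lies beyond the axis.

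At 5 of the 10 genes the canonical start site lay in a gap between 2 regions. These were KMT2A, KMT2B, KMT2C, SETD1B and KDM1B, with gaps of 492, 776, 1384, 948 and 544 bp. At KMT2D, SETD1A, KDM5A, KDM5B and KDM1A the start lay inside a region. Over the 15085 genes with a region the start was inside a region in 70.4% of genes and between 2 regions in 12.5%; among genes whose level fell in the range of these 10, the shares were 85.3% and 9.75%. With 10 genes chosen by function, these counts are a description and were not tested.

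The genes with a gap had the more GC-rich starts. Within 150 bp of the start, the GC content of the 5 genes was 75.4% (KDM1B), 76.7% (SETD1B), 80.1% (KMT2A), 83.1% (KMT2C) and 84.7% (KMT2B). The 5 genes with the start inside a region had 55.5% (KDM5A), 66.8% (KMT2D), 69.8% (SETD1A), 70.8% (KDM1A) and 72.1% (KDM5B), so the groups did not overlap. The medians of all genes lay in the same order, with 77.4% for starts between regions and 67.1% for starts inside one. Single genes did overlap there, with starts inside a region at 80.4% and starts between regions at 66.8% among them. The bases of the gap were richer in GC than the regions on both sides at 5 of 5 of these genes and at 96.4% of all genes with a gap. Each gap holds the start itself, so its GC content shares bases with the measure above and is not independent of it. Gaps over all genes had a median length of 729 bp and a median GC content of 76.3%, against 54.2% in the upstream and 52.3% in the downstream regions. The part that GC content has in these gaps was not tested.

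**Figure D3:**
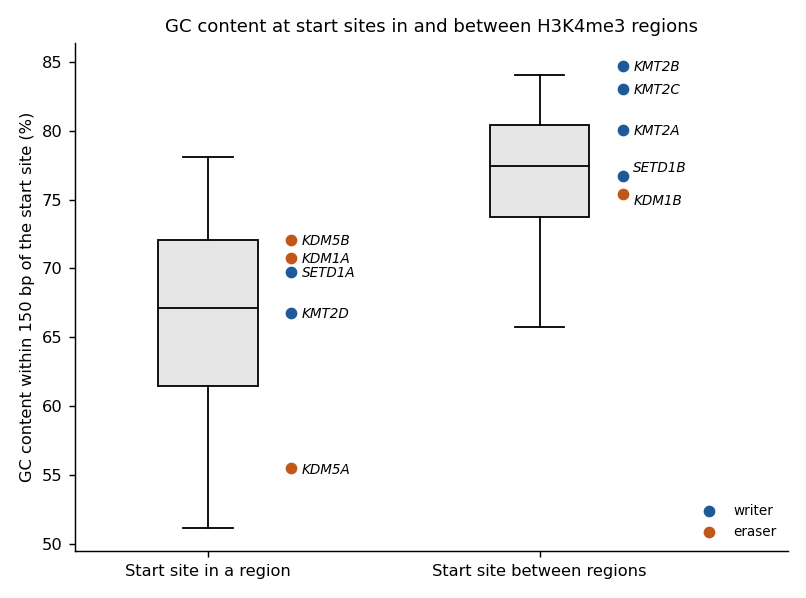
GC content within 150 bp of the canonical start, in percent, for all protein-coding genes whose start lies in a region (left box) or between 2 regions (right box), with the 10 genes as points. Boxes show the median and quartiles and whiskers the 5th to 95th percentiles; the 5 genes with a gap sit at 75.4% or more and the other 5 at 72.1% or less.

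The promoter window lies around the same start site, so its overlap with the regions largely follows from the position of the start and is no separate evidence. All 300 bases lay in a region at KMT2D, SETD1A, KDM5A, KDM5B and KDM1A, 99 bases did so at KMT2A, 58 at KDM1B and none at KMT2B or KMT2C. Over the 11941 genes with a RefSeq promoter and a region, 67.0% of promoters lay wholly inside regions and 20.6% wholly outside. The KMT2C promoter printed above had a GC content of 88.7%, with 56 CpG dinucleotides and 15 GC boxes, and the KMT2B promoter 83.3%, with 48 and 5. The KDM5A promoter, in the region with the highest level, had 60.0% GC, 20 CpG dinucleotides and 1 GC box.

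The GC box was found on either strand in 9 of 9 promoters and in 67.7% of all promoters. The median number of boxes was 3 in these genes and 1 over all promoters, with overlapping matches counted. No promoter of the 9 held CCAAT, present in 36.3% of all promoters, or the TATA sequence TATAAA, present in 6.55%. The E-box CACGTG was found at KMT2D alone (9.73% of all promoters), the ETS sequence CCGGAAG at KDM5A alone (17.6%), the YY1 sequence AAGATGGCG at KMT2B alone (3.49%), and an E2F sequence (TTTGGCGC or TTTCCCGC) at KDM1B alone (3.52%), with 2 matches. The CRE sequence TGACGTCA (3.10%) and the NRF1 sequence GCGCATGC (5.07%) were in none of the 9 windows. These are matches of letters in 300 bases and show no binding.

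The main region held the start of another gene at 6 of the 10 (SETD1A, SETD1B, KDM5A, KDM5B, KDM1A and KDM1B), compared with 40.3% of all genes with a region. Another protein-coding gene's start was in the main region at 4 (SETD1B with RHOF, KDM5A with CCDC77, KDM1A with TEX46 and KDM1B with TPMT), compared with 24.2%. Both counts lie within 2 genes of what these shares give for 10 genes, and they were not tested. At SETD1B, KDM5B and KDM1B the main region held a neighbour's start and none of the gene's own, which was so for 4.20% of all genes with a region. At these 3, signal of the enzyme gene and of its neighbour cannot be told apart. Nor can it at SETD1A, KDM5A and KDM1A, whose only region held both their own start and that of the neighbour. The highest levels among their regions that begin after the gene's own start were 26.0 for SETD1B, 81.6 for KDM5B and 22.2 for KDM1B.

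Within the gene bodies, away from the start windows, 22 further regions overlapped the 10 genes, with a median level of 3.91 and 18 of them under 10. The highest, 52.4, lay in KMT2D at chr12:49017486-49019706 and held the starts of PRKAG1 and DDN-AS1. KDM1B had 1 with 25.5 at chr6:18207508-18208576, SETD1B 1 with 14.0 and KDM5B 1 with 12.1. KMT2C, at 301.7 kb the longest of the 10 genes, had 9, the most, with none above 8.20. KMT2B (20.9 kb) and SETD1A (27.4 kb), the shortest genes, had none. The median of 3.91 lay near the 4.40 of all regions. These counts were not set against gene length or against other genes.

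The 31 other genes of the pathway, listed by function, all had a region. Their median level was 64.3 (10.0 to 180.9) and their median count per kb 21.4 (8.39 to 57.5), and 20 of 31 were above the median of all genes per length. The start lay between 2 regions at 8 of them (25.8%). These 31 genes include subunits, partners and readers as well as 4 further H3K4 enzymes, and their range overlapped that of the 10 genes; the difference of the medians was not tested.

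Of the 4 core subunits shared by all the methyltransferase complexes, the scaffold WDR5 had 9.47 per kb, ASH2L 21.0, DPY30 29.6 and RBBP5 34.8. The subunits listed for the SETD1 complexes ran from 19.4 per kb in HCFC1 over 26.9 in the CpG-binding protein gene CXXC1 to 28.0 in WDR82. MEN1, which encodes menin and is mutated in an inherited endocrine tumour syndrome, had 18.6, and its chromatin tether PSIP1 (LEDGF) had 17.1. The genes for the KMT2C and KMT2D complexes spanned 14.2 (PAXIP1) to 27.7 (NCOA6).

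The subunits listed for the SETD1 and KMT2 complexes beside the core spanned 14.2 to 28.0 per kb, inside the range of the 6 enzymes they serve. Partners of the KDM1 demethylases spread more widely, from 11.9 per kb in HMG20B to 57.5 in the deacetylase gene HDAC1, with CoREST genes at 36.0 (RCOR1), 15.0 (RCOR2) and 40.8 (RCOR3). The other H3K4 enzymes had the lowest median of these pathway lists, 12.7 per kb. Among these, the meiotic PRDM9 had 8.39, KDM5C 11.1, SMYD3 14.2 and SETD7, a monomethyltransferase first described as SET7/9, 22.5. The readers of the mark, which bind it through PHD fingers, chromodomains or Tudor-like domains, ran from 15.8 per kb in ING2 to 29.0 in CHD1, and 4 of the 6 had the start between regions.

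**Figure D4:**
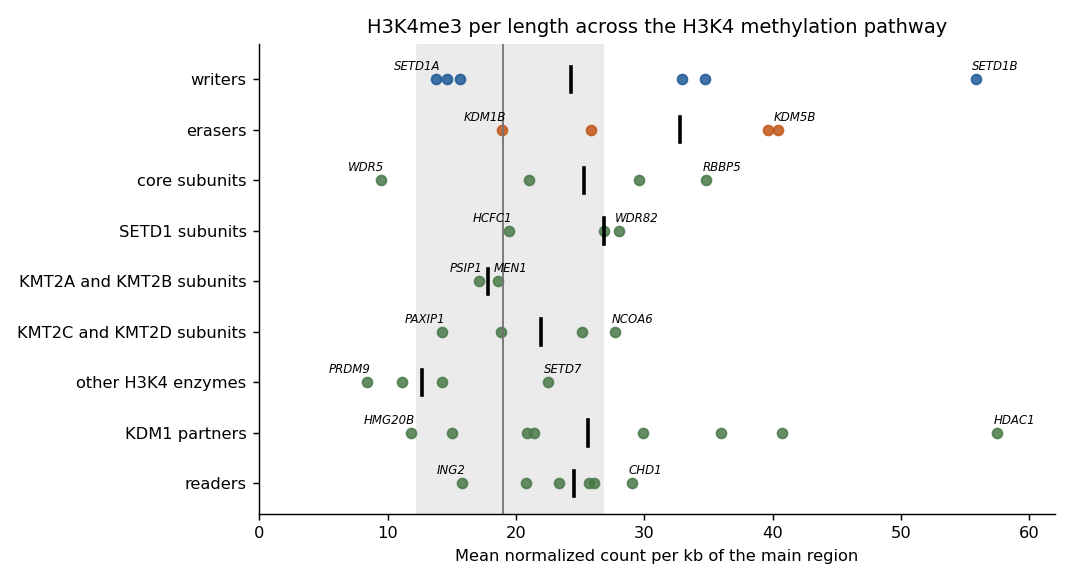
Points are genes by the mean normalized read count per kb of the main region, in rows by function, with the lowest and highest gene of each row named and a black bar at the row's median. The grey line and band are the median (19.0) and quartiles of all genes with a region; HDAC1 at 57.5 and SETD1B at 55.8 lie farthest right.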

How the data were processed

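H3K4me3 was measured by MINT-ChIP in EndoC-βH3 cells, with 4 control and 4 senescent samples. Bowtie2 (alignment, hg38), HOMER (peaks) and DESeq2 were used by the authors; how peaks were merged, counted and cleared of duplicates is not given in the sources used here, nor are the tool versions. The deposited table gives, for each region, a signal, the mean of counts normalized for library depth (DESeq2's baseMean), which is the authors' mean with no spread. Its 5 other columns hold the authors' own comparison of the states (log2 fold change, its standard error, Wald statistic, p-value and adjusted p-value) and were not used. The 16 samples of other marks were not analysed here.

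Regions were matched to start sites of all transcripts of GENCODE release 44 protein-coding genes, 2000 bp on either side, and checked against the hg38 sequence, inside which all 97545 regions lay. GC content was read from hg38, and promoters from RefSeq. Coordinates are printed as deposited, and whether they count from 0 or 1 is not given. Named genes were the 10 members, the 4 genes nearest in level to the highest member, and the lowest, highest and singled-out genes of fixed lists; the members and lists were chosen with earlier results of these data known. Matching was tested on simulated regions. Python 3.11.15, pandas 2.3.3, numpy 2.4.6, pysam 0.24.0 and matplotlib 3.10.9 were used. The choices of window, region, start site and scale were varied in 8 ways, and 1 further choice of transcripts was made after seeing the data.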

Additional observations from a re-analysis of the deposited data

How the results depend on the processing

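The values rest on 1 pooled mean per region. No paired analysis was possible because the table holds no value per sample, and leaving out each replicate was not possible for the same reason. The median level of the 10 genes was 83.0, at a median percentile of 72.0, with 8 above the median of all genes. With 1 kb windows the median level was 79.8, the percentile 69.9, the median width 3148 bp and the median GC content 47.9%; with 5 kb windows the percentile was 72.5, with canonical starts alone 72.4, with each distinct region counted once 74.7 and with genes of level 10 or more 67.5. Taking the nearest region gave a median level of 53.8, a percentile of 55.6, 5 genes above the median, a width of 3148 bp and a GC content of 49.6%, and 2 genes kept their place in the order; KMT2B then had 13.8, KMT2C 13.0, SETD1B 26.0 and KDM5B 81.6. Summing all regions in the window gave 94.5, a percentile of 71.8 and a total width of 4425.5 bp, with 3 genes in their place. The count per kb gave 29.4, a percentile of 79.8, 6 genes above the median and 1 gene in its place. Using the starts of protein-coding transcripts alone, a choice made after seeing the data, left all 10 genes in their place.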

Other observations

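The genes of the other 2 histone methylation systems named by the study were looked at in the same way. All 32 Polycomb genes had a region, with a median level of 64.2 and a median count per kb of 19.9, close to the 19.0 of all genes, and 17 of 32 lay above the median per length. They ranged from 3.22 per kb in PCGF3 to 65.7 in PHF19. The PHF19 value came from a region upstream of its start, with a level of 61.8, against 15.4 after the start. Their starts lay between 2 regions at 10 genes (31.2%), among them EZH2, the catalytic subunit of PRC2, and BMI1. All 20 genes of the H3K9 methylation system had a region as well, with a median level of 81.3 and a median count per kb of 24.6. Of these, 16 were above the median per length, with SUV39H1 at 11.3 as the lowest and EHMT2, the gene for G9a, at 79.7 as the highest. The EHMT2 value also came from a region upstream of the start, with a level of 83.3, against 4.82 after it. The start lay between regions at 7 of them (35.0%), including SUV39H1, SUV39H2, EHMT1 and EHMT2. These counts were not tested.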
